A study of Homo sapiens with 6 samples.

Results

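The genes described here are regulators and direct transcriptional targets of the tumour suppressor p53, compared between side population (SP) and non-SP cells of IGROV1, an established human ovarian carcinoma line. Of 31 genes on the list (CDKN1A and the GADD45 genes were kept out of it), 28 had at least 1 probe set annotated to that gene alone. These 28 genes were covered by 78 probe sets, out of 19775 genes and 54613 probe sets in all. BBC3 was annotated only on 1 probe set shared with microRNA genes and is not given a value. BTG2 and FDXR were not analysed here. The SP group consisted of 3 samples of sorted cells that keep little of the DNA dye Hoechst 33342, which membrane pumps export, and the non-SP group of 3 samples sorted outside that gate, with no other treatment named in the labels. Each sample was hybridised to 1 expression array after whole-transcriptome amplification of small amounts of RNA, and values are log2 expression normalised by RMA, a method that sets all arrays to a shared distribution. The labels call the samples biological replicates without naming separate cultures, so the p-values cover no more than the spread of these 6 arrays, and some of it may be technical.

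p53 is a transcription factor that is held at a low level by the ubiquitin ligase MDM2 and is stabilised when DNA is damaged. It then raises the RNA of genes for cell cycle arrest, cell death, DNA repair and metabolism, and also that of MDM2 and other genes that shut p53 off again. Hoechst 33342 binds DNA and is excited by a laser in the sorter. Both groups were stained and sorted, and non-SP cells keep more of the dye. The comparison therefore asks whether p53 targets differ between cells that carry less and more dye through the sort, and retained dye and any other property that separates SP and non-SP cells cannot be told apart. No unstained or unsorted sample is among the groups, so a response shared by both groups is not measured. In sorted bulk samples, fewer cells expressing a gene and less RNA per cell cannot be told apart.

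p53 binds a pair of half-sites of 10 bases. In RefSeq promoter sequences of build GRCh38.p14 (300 bases, from 250 before to 50 after each annotated start), such pairs were searched with a spacer of at most 1 base, the central C and G of both half-sites in place, and at most 3 other letters off the p53 half-site consensus. The consensus reads the same on both strands. Sequences were found for 23 of the 28 genes (not for FBXO22, PHLDA3, RRM2B, TNFRSF10B and TP53INP1), and 7 of the 23 held a match, against 2.91% of all genes in the table and 2.38% of its promoters. The matches are printed with 5 flanking bases (fewer where the sequence ends), because they show the element through which p53 is known to act on such genes, with the matched bases in capitals. They describe sequence only.
MDM2, chr12:68808918-68808947, plus strand: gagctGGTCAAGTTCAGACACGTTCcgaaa
FAS, chr10:88991304-88991333, plus strand: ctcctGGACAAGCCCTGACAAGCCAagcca
AEN, chr15:88621301-88621330, plus strand: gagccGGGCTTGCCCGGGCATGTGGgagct
GDF15, chr19:18386181-18386207, plus strand: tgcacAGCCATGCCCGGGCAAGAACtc
SESN1, chr6:109009013-109009042, minus strand: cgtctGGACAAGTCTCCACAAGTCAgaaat
RPS27L, chr15:63157522-63157551, minus strand: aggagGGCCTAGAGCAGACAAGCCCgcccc
PMAIP1, chr18:59899806-59899835, plus strand: gtcggGAGCGTGTCCGGGCAGGTCGcgctc
The pairs in MDM2, FAS and AEN were 2 letters off the consensus and those in GDF15, SESN1, RPS27L and PMAIP1 were 3 letters off. The pair in GDF15 began 28 bases after the annotated start, and the others began between positions -185 and -34 relative to it. Log2 differences (SP minus non-SP) of these 7 genes ran from -0.22 for RPS27L up to 0.36 for FAS and GDF15.

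As to the arrays, the 28 genes lay above the mean of 3 negative control probe sets (2.82 to 2.96 per array) on all 6 arrays, and 26 of them had a mean above the median level of all genes, 6.27. Of the ovarian carcinoma epithelium markers, 10 of 10 lay above the negative controls on all 6 arrays, among them EPCAM, PAX8 and KRT18. They were not all even between the groups. Of the 10, 3 reached an unadjusted p under 0.05 (limma, 30%, against 6.78% of all genes), and 0 were called. Groups did not overlap for 4 (40%, against 11.9% of all genes): KRT7 was higher in SP, and KRT8, MSLN and EPCAM were lower. KRT7 averaged 11.43 in SP and 10.64 in non-SP samples, and CDH1, whose groups overlapped, 10.53 in SP and 9.74 in non-SP samples. KRT8 averaged 7.40 in SP and 8.11 in non-SP samples, and MSLN 4.98 in SP and 5.35 in non-SP samples. Of 14 markers of leukocytes, fibroblasts, endothelium and erythroid cells, 11 also lay above the negative controls on all 6 arrays, and the other 3 (PTPRC, CD3E and LUM) did so on at most 1, so this check separates the cell types poorly. The first principal component of all genes held 45.8% of the variance and did not follow the groups: it set SP replicates 2 and 3 and non-SP replicate 2 against SP replicate 1 and non-SP replicates 1 and 3. The 3' minus 5' signal of the ACTB control probe sets, a measure of RNA and labelling quality, was 2.46 to 2.55 on the first 3 of these arrays and 2.02 to 2.29 on the other 3, whereas that of GAPDH overlapped, at 0.04 to 0.36 and 0.04 to 0.15. These 2 sets of arrays were read from the data and are not groups of the study.

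No gene of the p53 list differed between SP and non-SP cells past an adjusted p of 0.05: 0 of 28 were called, where 0.00506% of all genes (1 of 19775, lower in SP) were called (limma, Benjamini-Hochberg adjustment over all genes, smallest adjusted p on the list 0.692). The list was split evenly, with 14 genes above 0 and 14 below, where 45.3% of all genes lay above 0. Its median difference was 0.02 on the log2 scale, beside -0.02 over all genes. The median size of a difference, whatever its sign, was 0.15 on the list and 0.13 over all genes. An unadjusted p under 0.05 was reached by 3 of the 28 (10.7%), against 6.78% of all genes. Of these 3, 1 was higher in SP, where 3.07% of all genes were, and 2 were lower, where 3.71% were. Groups did not overlap for 2 genes (7.14%), against 11.9% of all genes. Both were higher in SP, beside 4.78% of all genes, and 0 were lower, beside 7.1%. The shares rest on few genes and lie near those of all genes. The count at an unadjusted p under 0.05 was 5 without SP replicate 1 (17.9%, against 8.72% of all genes). It was 1 without SP replicate 2 (3.57%, against 4.74%). It was 0 without SP replicate 3 or without non-SP replicate 3, against 4.81% and 6.04% of all genes. The count of groups that do not overlap was between 3 and 10 with 1 sample left out, since smaller groups overlap less often. The lowest of these counts, without SP replicate 3, was 10.7% of the list against 19.0% of all genes, and the highest, without SP replicate 1, was 35.7% against 27.2%.

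The intervals say how large a difference these arrays leave room for. For 24 of the 28 genes the upper end of the 95% confidence interval lay below 1 log2 unit, a 2-fold rise in SP cells. These were 85.7%, against 90.9% of all genes. For 22 genes (78.6%, against 84.0% of all genes) the whole interval lay within 1 unit either way. PPM1D, SUSD6, TNFRSF10B and GDF15 were the 4 genes whose interval reached above 1, and PLK2 and TP53INP1 the 2 whose interval reached below -1. These intervals come from 1 probe set per gene. Over the 78 probe sets, 61 intervals ended below 1 (78.2%, against 87.2% of all probe sets). The highest end was 2.61, for POLH probe set 219380_x_at.

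**Figure D1:**
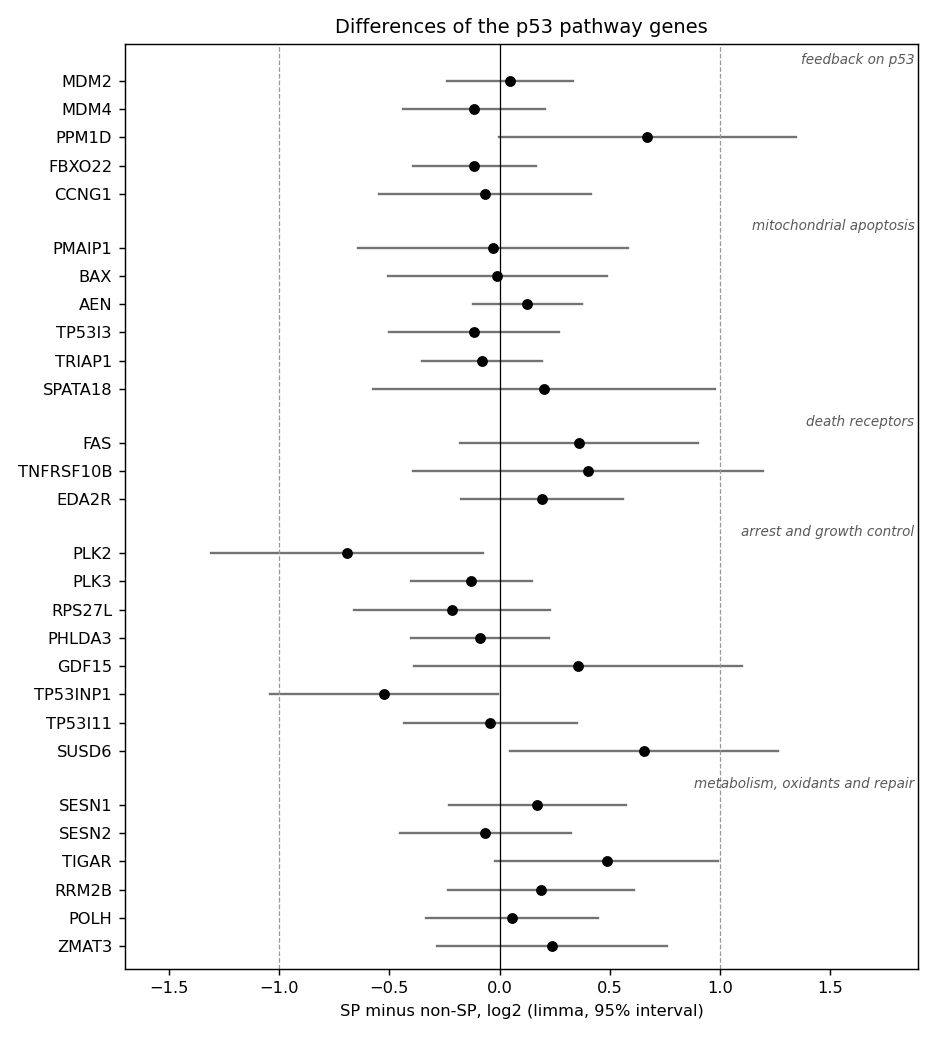
Differences of the 28 measured p53 pathway genes (x axis, log2, SP minus non-SP), by role (rows); points are limma estimates from 3 SP and 3 non-SP arrays, bars are 95% confidence intervals and dashed lines mark 1 log2 unit either way. Differences run from -0.69 (PLK2) to 0.67 (PPM1D), and 24 intervals end below 1.

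Among the genes that act back on p53, MDM2, its main ubiquitin ligase, had log2 levels of 10.75, 10.68 and 10.55 in SP samples, against 10.72, 10.57 and 10.55 in non-SP samples (probe set 229711_s_at). The groups lay on top of each other, with a difference of 0.05 (SE 0.12, interval -0.24 to 0.33). MDM2 was the gene with the most probe sets, 10, and 7 of them differed by more than 0, from -0.15 to 0.33. The highest of these, 211832_s_at, read 10.35, 10.24 and 10.41 in SP samples and 9.97, 10.04 and 9.98 in non-SP samples, so that its groups did not overlap. Its difference of 0.33 (SE 0.12) had an adjusted p of 0.596 over all 54613 probe sets (limma). Probe sets of a gene can report different transcripts, and the brightest MDM2 probe set did not show this difference.

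PPM1D, the phosphatase WIP1 that removes damage-induced phosphates from p53 and its kinases, had the largest upward difference on the list. Its levels were 8.37, 8.18 and 8.13 in SP samples, against 7.96, 6.90 and 7.81 in non-SP samples, and the groups did not overlap. The mean was 8.23 ± 0.13 in SP and 7.56 ± 0.57 in non-SP samples (SD, n = 3 each), a difference of 0.67 (SE 0.28), or 1.59-fold, with a limma adjusted p of 0.733. Non-SP replicate 2 was the lowest of the 6 arrays, and without it the difference was 0.34. The second PPM1D probe set, 230330_at, read 6.59, 6.49 and 5.80 in SP samples and 5.35, 5.58 and 5.71 in non-SP samples. It did not overlap between the groups either and differed by 0.75 (SE 0.24), with an adjusted p of 0.547 over all probe sets, the smallest of the 78 (limma).

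The remaining genes of this kind were closer. MDM4, the partner of MDM2 that blocks p53's activation domain, had levels of 10.25, 10.63 and 10.48 in SP samples and of 10.58, 10.55 and 10.58 in non-SP samples, a difference of -0.12 (SE 0.13). Its 6 probe sets lay between -0.17 and 0.39. FBXO22, which takes part in a ubiquitin ligase that removes methylated p53, differed by -0.11 (SE 0.12), and CCNG1, cyclin G1, by -0.07 (SE 0.20).

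Among 6 genes of mitochondrial cell death, differences ran from -0.12 to 0.20, and 0 were called. BAX, which opens the outer mitochondrial membrane, had levels of 8.92, 8.35 and 8.23 in SP samples, against 8.35, 8.68 and 8.51 in non-SP samples. SP replicate 1 was the highest array and SP replicate 3 the lowest, and the difference was -0.01 (SE 0.21). PMAIP1 (NOXA), a BH3-only protein that neutralises MCL1, had levels of 9.55, 9.85 and 10.13 in SP samples and of 9.77, 10.35 and 9.49 in non-SP samples, a difference of -0.03 (SE 0.26). AEN, a nuclease of apoptotic cells, was the most even: 8.08, 8.08 and 8.04 in SP samples, against 7.90, 7.96 and 7.95 in non-SP samples. Its groups did not overlap, but the difference was 0.13 (SE 0.10), or 1.09-fold, with a limma adjusted p of 0.903. TP53I3, a quinone oxidoreductase, and TRIAP1, an inhibitor of apoptosis, differed by -0.12 (SE 0.16) and -0.08 (SE 0.11). SPATA18 (Mieap), which acts in mitochondrial quality control, differed by 0.20 (SE 0.32), with the 3 SP samples spread between 4.81 and 6.10.

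The 3 TNF receptor family genes on the list, FAS, TNFRSF10B and EDA2R, all differed upward, without a call, where 45.3% of all genes differed upward. The figures label these rows death receptors, a name that is loose for EDA2R. FAS, the receptor of FAS ligand, had levels of 8.35, 8.70 and 9.08 in SP samples, against 8.54, 8.47 and 8.05 in non-SP samples, and the groups overlapped. The FAS difference was 0.36 (SE 0.23, interval -0.18 to 0.90), and it was 0.54 without SP replicate 1, 0.18 without SP replicate 3 and, leaving out non-SP replicate 3, 0.21. All 5 FAS probe sets lay above 0, between 0.30 and 0.54. One of them, 215719_x_at, did not overlap between the groups (8.18, 8.28 and 8.32 in SP samples, against 8.12, 7.99 and 7.53 in non-SP samples), with an adjusted p of 0.728 over all probe sets (limma). TNFRSF10B, the TRAIL receptor DR5, had levels of 12.05, 12.52 and 12.61 in SP samples, against 11.68, 12.72 and 11.58 in non-SP samples. Non-SP replicate 2 was the highest array of all, and the difference of 0.40 (SE 0.33) became 0.77 without it, 0.24 without non-SP replicate 1 and 0.20 without non-SP replicate 3. The 4 TNFRSF10B probe sets lay between -0.28 and 0.80, with 3 above 0. EDA2R, a TNF receptor family member with a dim signal, differed by 0.19 (SE 0.15).

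Genes of arrest and growth control held the 3 genes at an unadjusted p under 0.05, and these went both ways. PLK2, a polo-like kinase induced by stress, had levels of 6.997, 6.46 and 6.53 in SP samples, against 6.85, 7.54 and 7.66 in non-SP samples. SP replicate 1 lay above non-SP replicate 1, so the groups overlapped, and the difference was -0.69 (SE 0.26, limma adjusted p 0.692). TP53INP1, a nuclear protein that promotes p53 activation and autophagy, had levels of 9.85, 9.09 and 9.20 in SP samples, against 9.87, 9.82 and 10.02 in non-SP samples, and SP replicate 1 sat with the non-SP samples. It differed by -0.52 (SE 0.22, limma adjusted p 0.732), and its 3 probe sets all lay below 0, between -0.52 and -0.15. SUSD6, a membrane protein also known as DRAGO, had levels of 8.27, 8.91 and 8.89 in SP samples, against 7.75, 8.45 and 7.91 in non-SP samples. Non-SP replicate 2 lay above SP replicate 1, and the difference was 0.65 (SE 0.25, limma adjusted p 0.706).

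GDF15, a secreted stress cytokine, had levels of 10.27, 10.93 and 11.13 in SP samples, against 9.96, 10.90 and 10.40 in non-SP samples, and differed by 0.36 (SE 0.31). The difference was 0.61 without SP replicate 1, 0.18 without SP replicate 3, 0.12 without non-SP replicate 1 and 0.60 without non-SP replicate 2. Its 3 probe sets were between 0.31 and 0.36. RPS27L, a relative of a ribosomal protein, differed by -0.22 (SE 0.19), PLK3, another polo-like kinase, by -0.13 (SE 0.11), PHLDA3, which restrains AKT signalling, by -0.09 (SE 0.13) and TP53I11 by -0.04 (SE 0.16). A dimmer PLK3 probe set, 215462_at, read 5.40, 5.56 and 5.16 in SP samples and 5.67, 5.87 and 5.91 in non-SP samples. Its groups did not overlap, with a difference of -0.44 (SE 0.15, limma adjusted p 0.596 over all probe sets).

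Of 6 genes for metabolism, oxidants and repair, 5 differed upward (83.3%, against 45.3% of all genes) and 0 were called. TIGAR, a sugar phosphatase that slows glycolysis, had levels of 8.37, 8.13 and 8.80 in SP samples, against 7.78, 8.22 and 7.86 in non-SP samples. SP replicate 2 lay below non-SP replicate 2, and the difference was 0.49 (SE 0.21, interval -0.02 to 0.99, limma adjusted p 0.744), or 0.30 without SP replicate 3. SESN1 and SESN2, sestrins that restrain mTORC1, differed by 0.17 (SE 0.17) and -0.07 (SE 0.16). RRM2B, the ribonucleotide reductase subunit p53R2, differed by 0.19 (SE 0.18). ZMAT3, a zinc finger protein that binds RNA, differed by 0.24 (SE 0.22, between 0.10 and 0.46 with 1 sample left out), and its 5 probe sets all lay above 0, of which 1555609_a_at (0.38, SE 0.13) and 225725_at (0.20, SE 0.12) did not overlap between the groups. POLH, the translesion DNA polymerase eta, differed by 0.06 (SE 0.16), while its 6 probe sets disagreed, from -0.38 to 1.34. The probe set at 1.34, 219380_x_at, read 7.40, 5.23 and 6.36 in SP samples and 4.58, 5.11 and 5.27 in non-SP samples, with SP replicate 1 the highest array and SP replicate 2 inside the non-SP range.

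**Figure D2:**
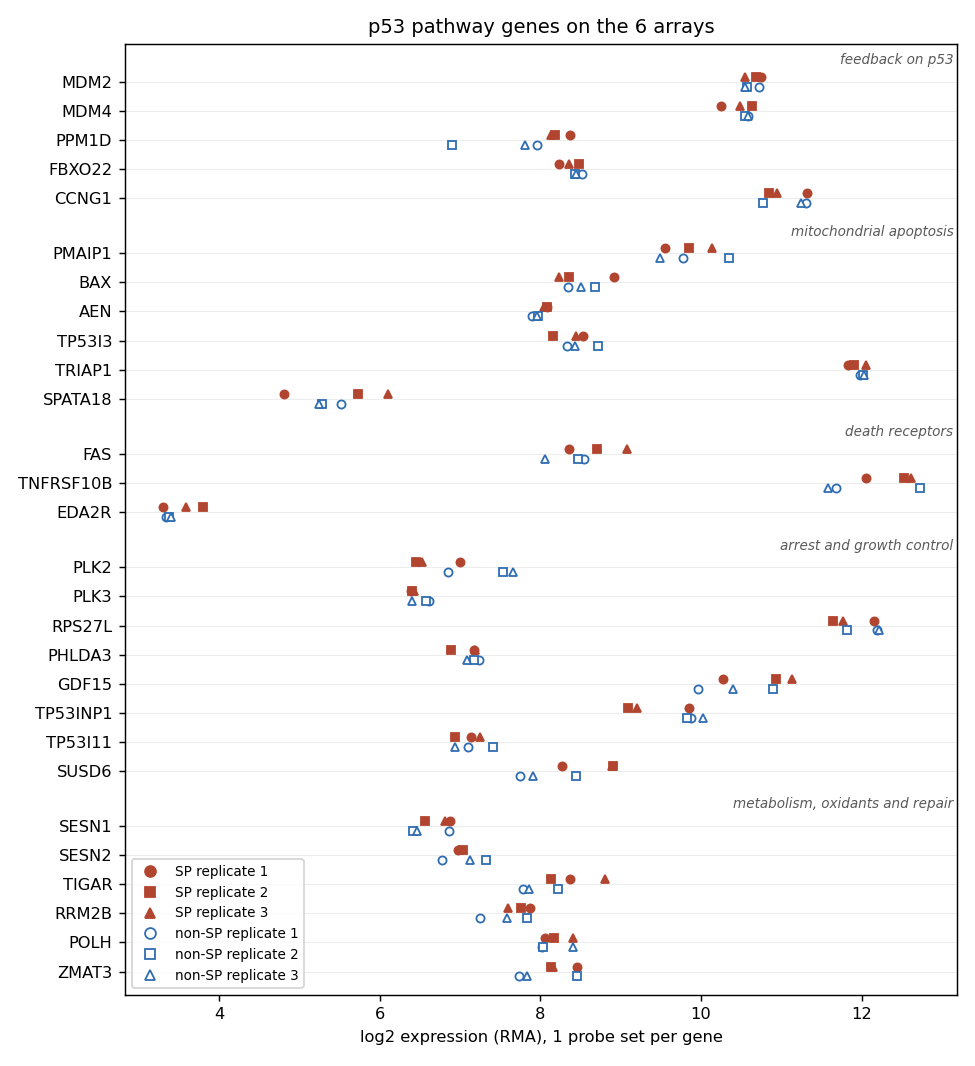
Log2 expression (x axis) of the 28 p53 pathway genes (rows, by role) on each array, 1 probe set per gene; filled red marks are the 3 SP samples and open blue marks the 3 non-SP samples, with 1 shape per replicate number. Marks of both groups mix in most rows; PPM1D and AEN are the 2 rows in which all SP marks lie to the right of all non-SP marks, and levels of different genes are not comparable along the axis.

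Over all 78 probe sets of the list, 0 passed an adjusted p of 0.05, where 0.00183% of all probe sets did. An unadjusted p under 0.05 was reached by 8 (10.3%, against 7.31% of all probe sets), of which 6 were higher and 2 lower in SP, where 3.79% and 3.52% of all probe sets were. The groups did not overlap for 9 (11.5%, against 12.5%), with 7 higher and 2 lower in SP, where 5.59% and 6.87% of all probe sets were. The 8 at an unadjusted p under 0.05 belonged to PPM1D, ZMAT3, MDM2, PLK3, PLK2, POLH, SUSD6 and FAS. Probe sets of 1 gene share their RNA and are not separate evidence. Of the 18 genes with several probe sets, 10 had probe sets of both signs.

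**Figure D3:**
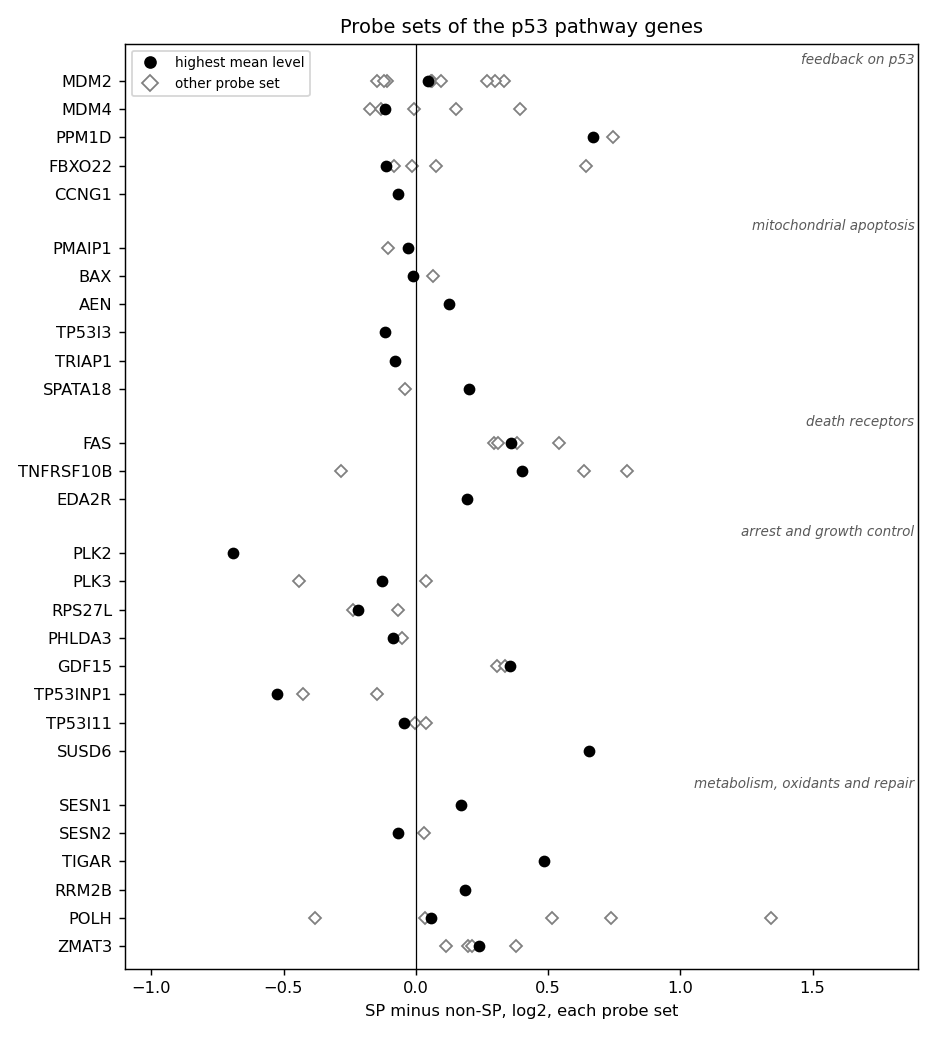
Log2 difference (x axis, SP minus non-SP) of each of the 78 probe sets, by gene (rows); black circles are the probe sets with the highest mean level, which stand for the gene elsewhere, and open diamonds the others. FAS, GDF15, PPM1D and ZMAT3 lie on the right of 0 with every probe set, PHLDA3, PMAIP1, RPS27L and TP53INP1 on the left, and POLH spreads from -0.38 to 1.34.

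Like all genes, those on the list parted the arrays more often by set than by SP and non-SP. The sets were read from these same values, so the 2 splits are not alike. Between the 2 sets of arrays named above, 7 of the 28 genes did not overlap (25.0%, against 26.9% of all genes). TNFRSF10B, GDF15, PMAIP1 and SUSD6 were higher on SP replicates 2 and 3 and non-SP replicate 2 than on the other 3 arrays, and CCNG1, RPS27L and TP53INP1 were lower. CCNG1 shows the pattern plainly, at 11.32, 10.84 and 10.95 in SP samples and 11.30, 10.77 and 11.24 in non-SP samples. RPS27L read 12.15, 11.64 and 11.77 in SP samples and 12.19, 11.82 and 12.21 in non-SP samples. TNFRSF10B, GDF15, PMAIP1 and SESN2 are known to be raised also by ATF4 or CHOP, the transcription factors of amino acid and endoplasmic reticulum stress, independently of p53.

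Genes of that stress response moved with the same arrays. Among 16 targets of ATF4 and CHOP, 12 were higher on SP replicates 2 and 3 and non-SP replicate 2 without overlap. PPP1R15A was the 1 that was lower, and over all genes 13.1% were higher and 13.7% lower in this way. The sets were read from the values of all genes, these 16 among them, so this parting is no separate evidence. The median log2 level of the 16 was 8.44, 9.92 and 9.91 in SP samples and 8.42, 10.34 and 8.26 in non-SP samples. ASNS, asparagine synthetase, read 9.78, 12.39 and 12.43 in SP samples, against 9.60, 12.64 and 9.91 in non-SP samples. Between SP and non-SP cells 13 of the 16 targets differed upward (81.25%, against 45.3% of all genes). Their median was 0.33, and 0 were called. Of the 16, 8 lay above 0 in the set of SP replicate 1 and non-SP replicates 1 and 3 (median -0.02). In the other set 4 of 16 did (median -0.19). Each set holds 1 sample of 1 of the groups, so these are values with no test. DDIT4, an mTORC1 inhibitor, differed by 0.37 (SE 0.12), ATF4 by 0.25 (SE 0.13), DDIT3 (CHOP) by -0.15 (SE 0.14) and the serine synthesis gene PSAT1 by 0.35 (SE 0.38). The part of this stress response in the levels of TNFRSF10B, GDF15, PMAIP1 and SUSD6 was not tested, nor was that of the ACTB 3' minus 5' signal, which parted the same arrays.

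**Figure D4:**
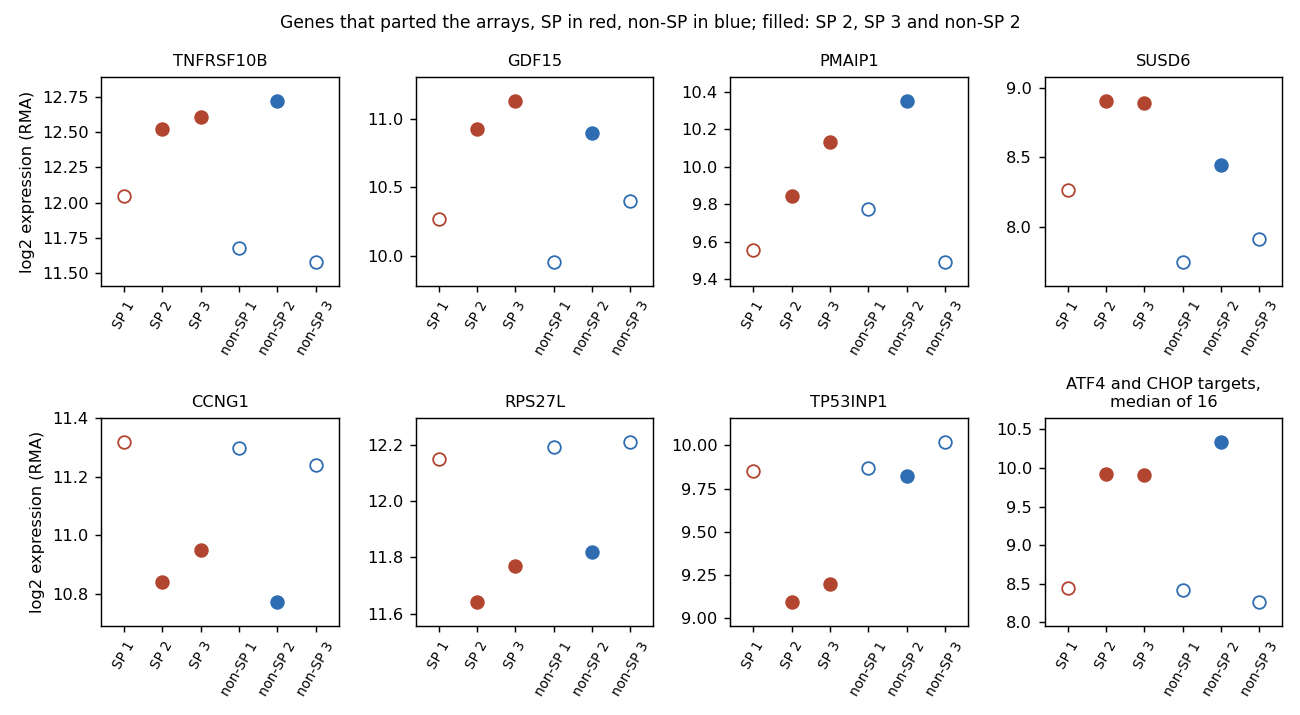
Log2 expression (y axis, its own scale in each panel) of the 7 p53 pathway genes that parted the arrays and the median of 16 ATF4 and CHOP target genes, by array (x axis, SP in red left of non-SP in blue); filled points are SP replicates 2 and 3 and non-SP replicate 2. In the upper row and the last panel the filled points lie above the open ones, and for CCNG1, RPS27L and TP53INP1 they lie below.

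Within the sets, SP samples can be compared with non-SP samples on arrays that lay on the same side of the first principal component. In the set of SP replicate 1 and non-SP replicates 1 and 3, 17 of the 28 genes lay above 0 with a median of 0.05, and in the set of SP replicates 2 and 3 and non-SP replicate 2, 13 did with a median of -0.03. In both sets 9 genes were above 0 and 7 below, and over all genes 24.2% and 32.3% were. SUSD6 differed by 0.44 and 0.45 in the 2 sets, PPM1D by 0.49 and 1.25, TIGAR by 0.56 and 0.25 and PLK2 by -0.26 and -1.05. TNFRSF10B differed by 0.42 and -0.15 and ZMAT3 by 0.67 and -0.31, with opposite signs. Each set holds 1 sample of 1 of the groups, so these are values with no test. With the set as a block, 0 genes on the list were called and the smallest adjusted p was 0.210, for PPM1D (limma, difference 0.87, SE 0.19).

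Other genes of the pathway were read from lists of their own. Among 42 measured p53 targets outside the list, 19 differed upward and 23 downward, with a median of -0.02, and 0 were called. Groups did not overlap for 2 that were higher and 3 that were lower in SP, 11.9% of the 42, against 11.9% of all genes. With an unadjusted p under 0.05, 2 were higher and 1 was lower, 7.14% of the 42, against 6.78% of all genes. REV3L, the catalytic subunit of DNA polymerase zeta, was the lower one, with 7.52, 7.37 and 6.67 in SP samples, against 8.36, 8.27 and 8.70 in non-SP samples. Its groups did not overlap and the difference was -1.26 (SE 0.25, limma adjusted p 0.388). ZNF79, a zinc finger gene, differed by 0.64 (SE 0.20). CDKN1A, the cell cycle inhibitor p21 and the best known p53 target, read 11.23, 11.74 and 11.83 in SP samples, against 10.84, 11.22 and 10.93 in non-SP samples, a difference of 0.60 (SE 0.20, limma adjusted p 0.620) with groups that did not overlap. SYTL1 differed by -0.17 (SE 0.11) and GADD45A by -0.07 (SE 0.12).

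Of 23 measured regulators and cofactors of p53, 15 differed upward (65.2%, against 45.3% of all genes) and 8 downward. Their median was 0.14, and 0 were called (smallest adjusted p 0.729, limma). An unadjusted p under 0.05 was reached by 1 (4.35%, against 6.78% of all genes). Groups did not overlap for 2 (8.70%, against 11.9% of all genes). PPP1R13B (ASPP1), which steers p53 to death genes, differed by 0.32 (SE 0.13), the deacetylase SIRT1 by 0.46 (SE 0.20), TP53BP2 (ASPP2) by 0.47 (SE 0.25) and CDKN2AIP by -0.55 (SE 0.28). Of 19 genes of DNA damage signalling, 12 differed upward (63.2%, against 45.3% of all genes) and 7 downward. Their median was 0.11, and 0 were called (smallest adjusted p 0.562, limma). An unadjusted p under 0.05 was reached by 2 (10.5%, against 6.78% of all genes). Groups did not overlap for 2 (10.5%, against 11.9% of all genes). The genes of lowest unadjusted p named next were all higher in SP. MRE11, a nuclease that senses breaks, differed by 0.63 (SE 0.17), the ubiquitin ligase RNF168 by 0.64 (SE 0.25), the checkpoint mediator CLSPN by 0.47 (SE 0.20) and the kinase WEE1 by 0.68 (SE 0.33).

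Cell cycle genes that p53 is known to lower through p21 and the DREAM repressor complex differed downward in 12 of 16 cases. Their median was -0.14, and 0 were called. The share above 0 was 25%, against 45.3% of all genes. Within the sets of arrays, 9 of 16 lay above 0 for SP replicate 1 and non-SP replicates 1 and 3 (median 0.04). In the other set 15 of 16 did (median 0.34). Each set holds 1 sample of 1 of the groups, so these are values with no test. CDK1, the mitotic kinase, was higher in SP samples, at 9.52, 9.36 and 9.43, against 8.37, 8.95 and 9.06 in non-SP samples. Its difference was 0.64 (SE 0.20, limma adjusted p 0.612). CENPA differed by -0.44 (SE 0.19), CDC25C by -0.26 (SE 0.28) and AURKA by 0.11 (SE 0.17). In 13 of the 16 genes the level was lower, without overlap, in the set of SP replicates 2 and 3 and non-SP replicate 2. Over all genes 13.7% were lower in this way. The sets were read from the values of all genes, these 16 among them, so this parting is no separate evidence. The median over the list was 9.65, 8.96 and 8.86 in SP samples and 9.73, 8.31 and 9.76 in non-SP samples. Between SP and non-SP samples 1 of the 16, CDK1, did not overlap (6.25%, against 11.9% of all genes).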

How the data were processed

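Values are log2 expression per probe set as deposited by the authors. Per the submitters' processing notes they were made with R 2.8.1, affy and RMA; of other steps and the build, nothing is given in the sources used here. RMA shares 1 distribution over the arrays and compresses differences near background, and the number of arrays limits precision. Control probe sets (62) were left out. Of 54613 others, 41091 carried 1 gene symbol and were named from the platform annotation, checked by Entrez ID against RefSeq (GRCh38.p14); 1801 carried several symbols and 11721 were unnamed. Each of 19775 genes was read from its probe set with the highest mean. Differences, standard errors, intervals (95%) and two-sided p-values are from lmFit and eBayes of limma 3.58.1 (R 4.3.3). Benjamini-Hochberg adjustment ran over all genes, or all probe sets, with a threshold of 0.05. Alternatives were other scalings, filters on dim genes, priors, array weights, blocks, an ACTB covariate, the mean of probe sets and leaving out each sample. An exact permutation test of 3 against 3 samples cannot go below 0.1. The script was tested on simulated data. Tables and figures used Python 3.11.15, pandas 2.3.3 and matplotlib 3.10.9.

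All 28 measured genes are named, and of each other pathway list up to 4 by unadjusted p with CDKN1A and GADD45A always; of the 25 regulators, 2 were not analysed here; single probe sets, ASNS, PPP1R15A and the cell type markers named beside the 4 epithelial ones of lowest p were picked with their values in view. The 31 genes and all lists were chosen with earlier results of these data known. The labels do not say whether same-numbered samples belong together, and the main fit did not pair them. Correlations of their deviations, 0.45, 0.38 and -0.21, do not decide it.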

Additional observations from a re-analysis of the deposited data

How the results depend on the processing

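Over 16 alternatives, 0 of the 28 genes passed in any (lowest adjusted p 0.210, limma), and 0 of their probe sets passed when only those above the negative controls were tested (lowest adjusted p 0.523, limma). The list's median ranged from -0.03 to 0.08 with 1 sample left out and was -0.02 with only genes above the median level. Of 446 recomputed differences 420 kept their sign, and 18 genes kept it throughout. Signs turned when all probe sets of a gene were averaged for MDM4 (0.019), FBXO22 (0.10) and BAX (0.028), with median centring for PMAIP1 (0.0036) and BAX (0.025), with array weights for PMAIP1 (0.18) and TP53I11 (0.011), with the array set as a block for CCNG1 (0.089) and BAX (0.053), and with the ACTB signal as a covariate for BAX (0.0069). With 1 sample left out, signs turned for CCNG1 (-0.23 to 0.033), PMAIP1 (-0.22 to 0.21), BAX (-0.22 to 0.12), SPATA18 (-0.075 to 0.57), PHLDA3 (-0.14 to 0.00995), TP53I11 (-0.15 to 0.086), SESN2 (-0.22 to 0.060) and POLH (-0.039 to 0.19). Over all genes, calls higher and lower in SP were 0 and 1 as reported, 1 and 2 with a replicate block, 4 and 8 with array weights, 1 and 4 with the array set as a block, 1 and 2 with the ACTB covariate, 0 and 0 with the mean of probe sets and with only genes above the median level, and 1 to 2 lower with 1 sample left out; the cause was not tested. Genes of the list at an unadjusted p under 0.05 (limma) numbered 3 as reported and 3 with the replicate block. Whether the replicate numbers pair the samples is not known. With array weights the count was 6. No share of all genes was taken for the replicate block or the array weights. With 1 sample left out the count was 0 to 5 (0% to 17.9%, against 4.74% to 9.13% of all genes). Groups that do not overlap numbered 3 to 10 with 1 sample left out (10.7% to 35.7%, against 18.1% to 27.2% of all genes). The array set was read from the values tested, so p-values with it may be too small.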
